A study of Mus musculus with 68 samples.

Results

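The resting zone of the growth plate was compared with the proliferative zone below it in xylene-fixed bone sections of mice at postnatal day 28 (P28). The libraries were chosen by their labels for age, fixation and zone: 4 resting and 5 proliferative libraries, 9 of the 68 in the series, from 2 animals. Libraries with at least 100000 counts entered the comparison, which kept 7 of the 9: resting replicate 3 and proliferative replicates 1, 2 and 3 from pup 1, and resting replicate 4 and proliferative replicates 4 and 5 from pup 4. Each animal thus gave 1 deep resting library. The pups were named by the numbers in their labels, and the labels give their background as mixed and name no genotype or treatment. By the protocols in the labels, frozen bones were sectioned at 10 microns and stained, and each zone was lifted by laser capture and lysed directly. Libraries were made by SMART-seq2, which amplifies full-length cDNA from very little RNA. Deep libraries of ethanol-fixed P28 sections, from animals A, B and D, served for comparison, and animal D is pup 1. Animals A and B were counted from labels with several suffixes, and the label of animal B names animals in the plural, so it may be a pool.

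In the growth plate, resting chondrocytes form a reserve that feeds the columns of flat, dividing cells in the proliferative zone, and column cells later enlarge into hypertrophic chondrocytes. The zones signal to each other. Parathyroid hormone-related protein (Pthlh) made near the top of the plate keeps column cells from enlarging through its receptor Pth1r, and Indian hedgehog (Ihh) made by cells leaving the column acts back on Pthlh and on division. Resting cells are known for secreted Wnt inhibitors such as Wif1 and Sfrp5, while Mef2c, Panx3 and Ihh mark cells that are about to enlarge.

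The 2 deep resting libraries held 1501478 counts (pup 1) and 631447 counts (pup 4), with 11884 and 9210 genes detected. The proliferative libraries held 370654 to 1900544 counts. In the deep libraries of pup 1, Y-linked genes had 110 to 470 counts and Xist 0 to 4. In those of pup 4, Xist had 39 to 2375 counts and Y-linked genes 0, so the 2 animals differed in these marks of sex. Rn45s, a ribosomal repeat, took 12.9% to 35.9% of the counts in 6 of the 7 libraries and 78.7% in proliferative replicate 5, which held 62977 counts outside Rn45s, Lars2 and Glra2. The shallow resting replicates 1 and 2, both of pup 1, held 3237 and 26806 counts, and Glra2 took 83.1% of the second. Cartilage genes were abundant in the deep libraries of both zones. Col2a1, the main cartilage collagen, stood at 69760 and 62160 counts per 1000000 of the library total (CPM) in the resting libraries and at 23420 to 88530 CPM in the proliferative ones. These totals include Rn45s, so the CPM of other genes in proliferative replicate 5 read low beside the other libraries. Xylene hypertrophic replicate 3 had 70.3 CPM of Col2a1 and 62780 CPM of Col1a1, a bone and fibrous tissue collagen, against 39390 to 132500 CPM of Col2a1 in the other 4 hypertrophic libraries. It is in the hypertrophic sum of pup 1 and so enters the same fit. Without it, 12 of the genes called below were called, and those that were not are named with their values.

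For the test, libraries were summed per animal and zone and fitted with edgeR's quasi-likelihood test, the animal as a block and the spread shared with the other P2 and P28 sums. At a Benjamini-Hochberg adjusted p of 0.05, 15 of 10717 genes (0.14%) differed between the zones and are referred to as called. Of these, 4 (0.0373%) were higher and 11 (0.103%) lower in the resting zone. Before adjustment, 442 genes had p under 0.05. Igf1, Igf2, Clu and Meg3 were higher in resting cartilage. Mef2c, Matn1, Cd200, Ihh, Panx3, Frzb, Cdkn1c, Grb14, Sgms2, Fam162a and Anxa8 were lower. All 15 lay in the same direction in pup 1 and in pup 4, where 22.5% of all genes were higher and 27.5% lower in both. The test used these same animals and favours genes that agree between them, so the agreement is no separate support. The calls rested on both animals and on the block: edgeR made 2 calls without pup 1 (Mef2c and Matn1), 0 without pup 4 (109 genes at unadjusted p under 0.05) and 0 without the animal block (406 genes). DESeq2, run with the block, made 46 calls on the same sums, and 7 of them were among these 15. Each library is a pool of captured cells, so fewer cells that express a gene and less RNA of it per cell cannot be told apart.

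**Figure D1:**
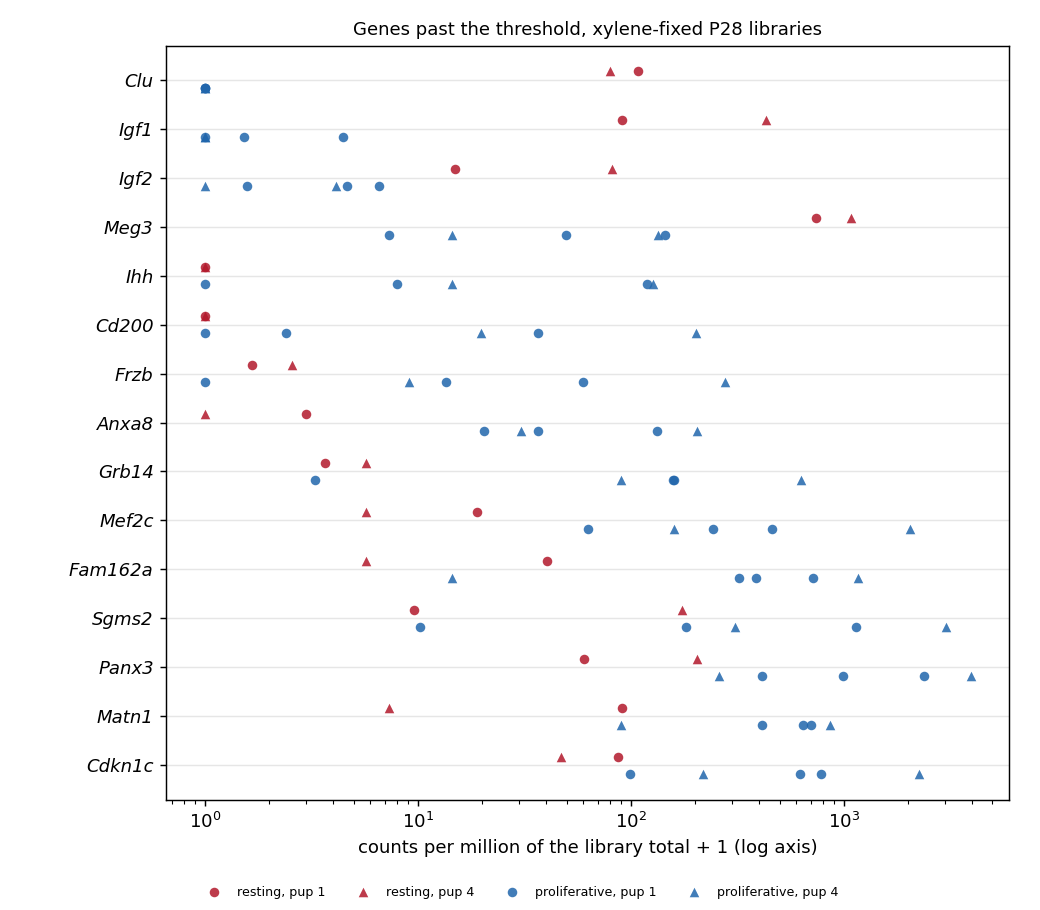
Level of each of the 15 called genes in the 7 deep xylene-fixed P28 libraries, in CPM of the library total plus 1 on a log axis, with circles for pup 1, triangles for pup 4, red for resting and blue for proliferative. The red and blue points do not overlap for Igf1, Igf2, Clu and Meg3, while for Ihh, Cd200, Frzb, Grb14, Sgms2, Matn1 and Fam162a at least 1 proliferative library lies at or below the higher resting library.

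The plot of the called genes by library shows the 4 higher genes at the top and the 11 lower genes beneath them. Proliferative replicate 4 has the highest level of each of the 11 lower genes, and proliferative replicate 2 is among the lowest for many of them.

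The promoters of 3 called genes of different roles, a signal, a matrix protein and a noncoding RNA, show the sequences from which transcripts that differ between the zones start: Ihh, the hedgehog ligand, Matn1, a cartilage matrix protein, and Meg3, a long noncoding RNA of an imprinted cluster. The sequences run from 250 bases before to 50 bases after the transcript start, 5′ to 3′ on the gene's strand, and come from RefSeq on GRCm38.p6, the same build as mm10. Promoters were found for 12 of the 15 called genes. Capitals mark matches on either strand to TGTGGT, the core bound by RUNX factors, AACAAT, a SOX core, or TATAAA, the TATA box.

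Ihh promoter, chr1:74951623-74951922, minus strand: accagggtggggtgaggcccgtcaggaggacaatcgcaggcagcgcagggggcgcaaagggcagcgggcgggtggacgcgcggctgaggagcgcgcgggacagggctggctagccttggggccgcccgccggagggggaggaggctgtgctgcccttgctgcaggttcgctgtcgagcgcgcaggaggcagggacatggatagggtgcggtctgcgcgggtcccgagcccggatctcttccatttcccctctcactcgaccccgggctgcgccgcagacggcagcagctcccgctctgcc

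Matn1 promoter, chr4:130944135-130944434, plus strand: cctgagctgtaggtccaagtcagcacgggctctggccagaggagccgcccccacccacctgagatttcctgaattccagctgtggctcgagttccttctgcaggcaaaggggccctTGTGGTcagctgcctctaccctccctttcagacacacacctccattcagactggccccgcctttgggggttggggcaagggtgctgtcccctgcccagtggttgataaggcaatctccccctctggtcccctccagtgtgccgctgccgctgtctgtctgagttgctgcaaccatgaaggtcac

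Meg3 promoter, chr12:109540746-109541045, plus strand: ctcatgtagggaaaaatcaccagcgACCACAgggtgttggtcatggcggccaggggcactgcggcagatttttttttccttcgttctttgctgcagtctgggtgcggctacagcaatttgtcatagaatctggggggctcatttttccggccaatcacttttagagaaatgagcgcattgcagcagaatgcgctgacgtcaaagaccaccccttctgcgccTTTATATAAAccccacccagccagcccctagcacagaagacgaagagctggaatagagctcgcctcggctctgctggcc

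The Ihh window holds none of the 3 motifs, and the Matn1 window holds TGTGGT. The Meg3 window holds the reverse complement of TGTGGT and a TATA run in which matches on the 2 strands overlap. The 12 called genes with a promoter had 23 windows, since some have several starts. TGTGGT was found in 4 of the 23 (Anxa8, Matn1, Meg3 and Sgms2), against 16.8% of the 32851 RefSeq promoters of this length, AACAAT in 3 (Igf2 and Sgms2) against 10.7%, and TATAAA in 3 (Mef2c and Meg3) against 13.6%. These matches describe letters and were not tested.

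Of 23 tested markers of prehypertrophic and hypertrophic cells, those that leave the column, 5 were called lower in the resting zone, beside 0.103% of all genes. Ihh had 0 counts in both deep resting libraries, against 6.98, 0 and 118.9 CPM in the proliferative libraries of pup 1 and 126.2 and 13.5 CPM in those of pup 4. The gene lies on chromosome 1 (74945315 to 74951672, mm10). Against a floor of 3 counts over the group, Ihh was at least 49.2-fold lower in resting cartilage (adjusted p = 0.00631, edgeR quasi-likelihood test). In pup 1 alone it was at least 26.6-fold and in pup 4 alone at least 22.1-fold lower. Proliferative replicate 2, like the resting libraries, had 0 Ihh counts. Mef2c, a transcription factor that drives chondrocyte hypertrophy, stood at 18.0 CPM (pup 1) and 4.75 CPM (pup 4) in resting cartilage. In the proliferative libraries it stood at 242.9, 61.8 and 459.9 CPM in pup 1 and at 2044 and 159.2 CPM in pup 4. The groups did not overlap. The share of all genes without overlap was not counted, so a lack of overlap here and below only describes the libraries. The fitted difference of Mef2c was -5.88 ± 1.07 (log2 ± SE, adjusted p = 0.000421, edgeR). This SE, like those below, comes from the fit with its spread shared over the P2 and P28 sums. It does not measure the spread between the 2 animals.

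Panx3, a pannexin channel of prehypertrophic cells, had 59.3 and 204.3 CPM in resting cartilage of pups 1 and 4. Its proliferative levels were 996.8, 412.1 and 2375 CPM in pup 1 and 3942 and 259 CPM in pup 4, all above both resting libraries. The summed proliferative level was 23.1-fold the resting one in pup 1 and 15.9-fold in pup 4, and the fitted difference was -4.34 ± 0.93 (log2 ± SE, adjusted p = 0.00631, edgeR). Sgms2, which makes sphingomyelin, was 8.66 and 172.6 CPM in resting cartilage and 181.5, 9.25, 1140, 3031 and 307.6 CPM in proliferative replicates 1 to 5. Here the groups overlapped through proliferative replicate 2, while the difference between the sums was -4.61 ± 1.06 (log2 ± SE, adjusted p = 0.0219, edgeR). It did not pass without hypertrophic replicate 3 (adjusted p = 0.08, edgeR). Smpd3, a sphingomyelinase needed for mineralising cartilage, moved by -2.96 ± 0.80 without passing the threshold (adjusted p = 0.127, edgeR), with 293.7 and 419.7 CPM in resting libraries against 474.8 to 4860 CPM.

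Cd200, a membrane protein used both as a skeletal stem cell marker and as a marker of prehypertrophic cells, had 0 counts in both resting libraries. The proliferative libraries had 1.40, 0 and 35.8 CPM in pup 1 and 201.9 and 18.9 CPM in pup 4. That is at least 44.7-fold lower in resting cartilage (adjusted p = 0.00627, edgeR). Without proliferative replicate 4, which holds 320 of the 396 Cd200 counts, it was at least 11.5-fold lower, and in pup 1 alone at least 7.94-fold lower. Grb14, an adaptor that dampens insulin receptor signalling, had 2.66 and 4.75 CPM in resting libraries, against 159.2, 2.31, 157.3, 630.9 and 89.0 CPM in proliferative replicates 1 to 5 (-6.22 ± 1.43, adjusted p = 0.0146, edgeR). Proliferative replicate 2 lay below both resting libraries for it.

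The calls for these late genes depended on proliferative replicates 3 and 4, the libraries with the highest levels. Without replicate 3, 4 of the 15 genes passed in edgeR (Igf1, Igf2, Mef2c and Matn1), and without replicate 4 again 4 passed (Igf2, Meg3, Mef2c and Matn1). Without replicate 3 the Ihh bound was 33.9-fold and the Sgms2 difference -3.76. Without replicate 4 the fitted difference was -4.90 for Mef2c, -3.13 for Panx3, -3.52 for Sgms2, -5.54 for Grb14, -3.10 for Cdkn1c and -3.35 for Fam162a, each smaller than with it. For Igf2 and Meg3 it was larger, at 5.23 and 4.53. The median over all genes also moved up without replicate 4, from -0.06 to 0.48. Proliferative replicate 5, where Rn45s took 78.7% of the counts, was then the only proliferative library of pup 4. How much of these changes follows from that was not tested. Mef2c was -8.61 without pup 1 and -3.98 without pup 4, and Matn1 -6.97 and -2.79. Col10a1, the collagen of hypertrophic cells, stood at 2076 and 1516 CPM in the proliferative libraries of pup 4 and at 4.05 to 51.0 CPM in those of pup 1. In the resting libraries it was 8.66 and 31.7 CPM, and the zones did not differ for it by the test (-4.58 ± 2.49, adjusted p = 1, edgeR). The part that the position of the captured cells along the column plays in the late gene results was not tested. Over the list of 23 tested prehypertrophic and hypertrophic markers, 5 were called lower (Ihh, Panx3, Mef2c, Cd200 and Sgms2) and 0 higher. Called or not, 14 were lower in both animals and 1 higher in both. The list's median difference was -2.30, beside -0.06 over all genes tested, where 27.5% were lower and 22.5% higher in both animals.

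Pth1r, the receptor for Pthlh, was 201.1 and 516.3 CPM in resting cartilage and 915.8, 221.9, 1446, 2829 and 825.6 CPM in proliferative replicates 1 to 5. The difference was -2.30 ± 0.71 and did not pass (adjusted p = 0.322, edgeR). Pthlh itself was at the limit of detection, with 0 counts in pup 1 and 2 counts in pup 4 in resting cartilage and 0 in all 5 proliferative libraries. So few counts cannot show a zone difference in xylene. The ethanol-fixed resting libraries were shallower, yet held 9 counts in animal A, 2 in animal B and 98 in animal D, which is pup 1. Why the xylene resting libraries held so few was not tested. Hhip, which binds hedgehog and is a target of the pathway, had 545.5 and 334.2 CPM against 13.5 to 488.4 CPM (2.65 ± 1.25, adjusted p = 1, edgeR). Smo, which passes the signal on, had 139.9 and 98.2 CPM against 9.77 to 64.7 CPM, and Gli3, a transcription factor of the pathway, 103.2 and 248.6 CPM against 11.4 to 82.1 CPM. Neither overlapped between the zones, but the share of all genes that do the same was not counted. Neither passed the test (adjusted p = 1 for both, edgeR). Of 10 tested PTHrP and hedgehog genes, Ihh was the 1 call. In both animals 6 were higher and 3 lower in resting cartilage, beside 22.5% and 27.5% of all genes.

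Wnt inhibitors did not form 1 group. Frzb, a secreted Wnt binder of cartilage, had 1 count in each resting library (0.67 and 1.58 CPM). It had 12.6, 0 and 58.9 CPM in the proliferative libraries of pup 1 and 277 and 8.09 CPM in those of pup 4. The pooled resting to proliferative ratio was 0.0105, with a 95% counting interval of 0.00127 to 0.0381 that covers counting error only, and the zones differed (adjusted p = 0.00937, edgeR). Without proliferative replicate 4 the ratio was 0.0357 (0.00427 to 0.132). Wif1 lay the other way, with 11.3 and 68.1 CPM in resting libraries and 3 counts in all proliferative libraries together, a pooled ratio of 59.1 (19.3 to 295) that did not pass (adjusted p = 0.655, edgeR). Sfrp5 was 68.6 and 172.6 CPM in resting cartilage and 171.7 CPM in proliferative replicate 2, beside 1.89 to 44.2 CPM in the other 4 (3.31 ± 2.11, adjusted p = 1, edgeR). Of 9 tested genes of this list, 2 were higher and 4 lower in both animals, beside 22.5% and 27.5% of all genes. The other 7 of its 16 genes were too low to be tested.

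The insulin-like growth factors were higher in the resting zone. Igf1, a local and systemic growth factor of cartilage, had 135 counts in resting cartilage of pup 1 and 273 in pup 4 (89.9 and 432.3 CPM). The 5 proliferative libraries held 7 counts in all, at 0, 3.47, 0.53, 0 and 0 CPM. The groups were far apart, at 10.56 ± 2.29 (log2 ± SE, adjusted p = 0.00631, edgeR), a fitted value that depends on how the 0 counts of pup 4 are treated. Without xylene hypertrophic replicate 3 it was 7.71 and did not pass (adjusted p = 0.0838, edgeR). The ratio of the sums in pup 1 was 55.8-fold. Igf2, its imprinted relative, had 21 and 51 counts in the resting libraries (14.0 and 80.8 CPM) and 5.58, 0.58, 3.68, 3.15 and 0 CPM in proliferative replicates 1 to 5. Its groups did not overlap, with ratios of 5.07-fold in pup 1 and 31.6-fold in pup 4 and a difference of 4.13 ± 0.85 (adjusted p = 0.00569, edgeR). Without hypertrophic replicate 3 the difference was 3.46 (adjusted p = 0.0167, edgeR). Pappa2, a protease that frees IGF from its binding proteins, had 55.3 and 57.0 CPM in resting libraries and 2 proliferative counts, and did not pass (pooled ratio 176, interval 47.6 to 1470, adjusted p = 0.245, edgeR). The receptor Igf1r differed by 0.33 ± 1.14. Of 18 tested GH and IGF genes, 2 were called higher (Igf1 and Igf2) and 0 lower, beside 0.0373% and 0.103% of all genes. Called or not, 8 were higher and 3 lower in both animals, beside 22.5% and 27.5% of all genes.

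Meg3 was 741.3 and 1086 CPM in resting cartilage, against 143.8, 6.36, 48.9, 133.7 and 13.5 CPM in proliferative replicates 1 to 5. The ranges did not overlap, the ratio was 15.6-fold in pup 1 and 9.79-fold in pup 4, and the difference was 3.32 ± 0.82 (adjusted p = 0.0416, edgeR). H19, the noncoding neighbour of Igf2, was 1817 and 2363 CPM against 54.0 to 1225 CPM, without passing the test (2.63 ± 1.45, adjusted p = 1, edgeR). Cdkn1c, an imprinted inhibitor of the cell cycle, went the other way, at 86.6 and 45.9 CPM in resting libraries and 622.7, 98.8, 783.5, 2267 and 218.5 CPM in proliferative replicates 1 to 5. All 5 lay above both resting libraries, and the difference was -3.90 ± 0.89 (adjusted p = 0.0127, edgeR). The imprinted list of 19 tested genes held 2 higher and 1 lower call. Of its genes 5 were higher and 4 lower in both animals, near the 22.5% and 27.5% of all genes. How reads from both strands were assigned is not given in the sources used here, so Igf2 and an overlapping antisense transcript cannot be told apart, and the same holds for Emx2os and Emx2.

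Clu, the secreted chaperone clusterin, had 161 and 50 counts in the resting libraries (107.2 and 79.2 CPM) and 0 counts in all 5 proliferative libraries. It was at least 208-fold higher in resting cartilage (adjusted p = 0.038, edgeR), at least 155-fold in pup 1 and 51.6-fold in pup 4. It did not pass without hypertrophic replicate 3 (adjusted p = 0.0684, edgeR). Clu is also abundant in articular cartilage. The defining articular marker Prg4 had 2 counts in resting replicate 3, 0 in resting replicate 4, and 5 and 1 in proliferative replicates 3 and 4. Among the next genes by p that were higher in resting cartilage, Igf2bp2, an RNA-binding protein, had 3.33 and 183.7 CPM and 0 proliferative counts (adjusted p = 0.199, edgeR). Zfp958 had 261.1 and 3.17 CPM and 0 proliferative counts (adjusted p = 0.117, edgeR). Emx2os had 22.6 and 31.7 CPM and 0 proliferative counts (adjusted p = 0.199, edgeR). Clmn had 11.99 and 345.2 CPM against 2 proliferative counts, and 2610034B18Rik had 147.9 and 90.3 CPM against 0 to 57.2 CPM (adjusted p = 0.266 and 0.187, edgeR).

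Resting zone markers as a list were mixed. Of 21 tested, Clu was called higher and Cd200 lower. In both animals 9 were higher and 5 lower, beside 22.5% and 27.5% of all genes. The median difference was 1.55 (1.39 with genes at 0 counts set to their bound). Apoe, a lipid carrier, had 341.7 and 443.4 CPM in resting cartilage and 1.40, 154.3, 4.74, 6.94 and 2.70 CPM in proliferative replicates 1 to 5 (4.44 ± 1.44, adjusted p = 0.497, edgeR). Both resting libraries were above the proliferative ones, and replicate 2 was the nearest. Efemp1, a fibulin, had 21.3 and 107.7 CPM against 0 to 7.57 CPM (4.91 ± 1.74, adjusted p = 0.783, edgeR). Ucma, a matrix protein of upper zone chondrocytes, overlapped fully, at 1033 and 758.6 CPM against 134.9 to 1343 CPM (0.37 ± 0.84). Gdf10, a BMP family member, was 327.7 and 125.1 CPM against 48.6 to 457.2 CPM (0.03 ± 1.16). Mgp, an inhibitor of mineralisation, was 2686 and 6674 CPM against 366.9 to 2154 CPM, non-overlapping but not called (1.55 ± 0.71, adjusted p = 1, edgeR).

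**Figure D2:**
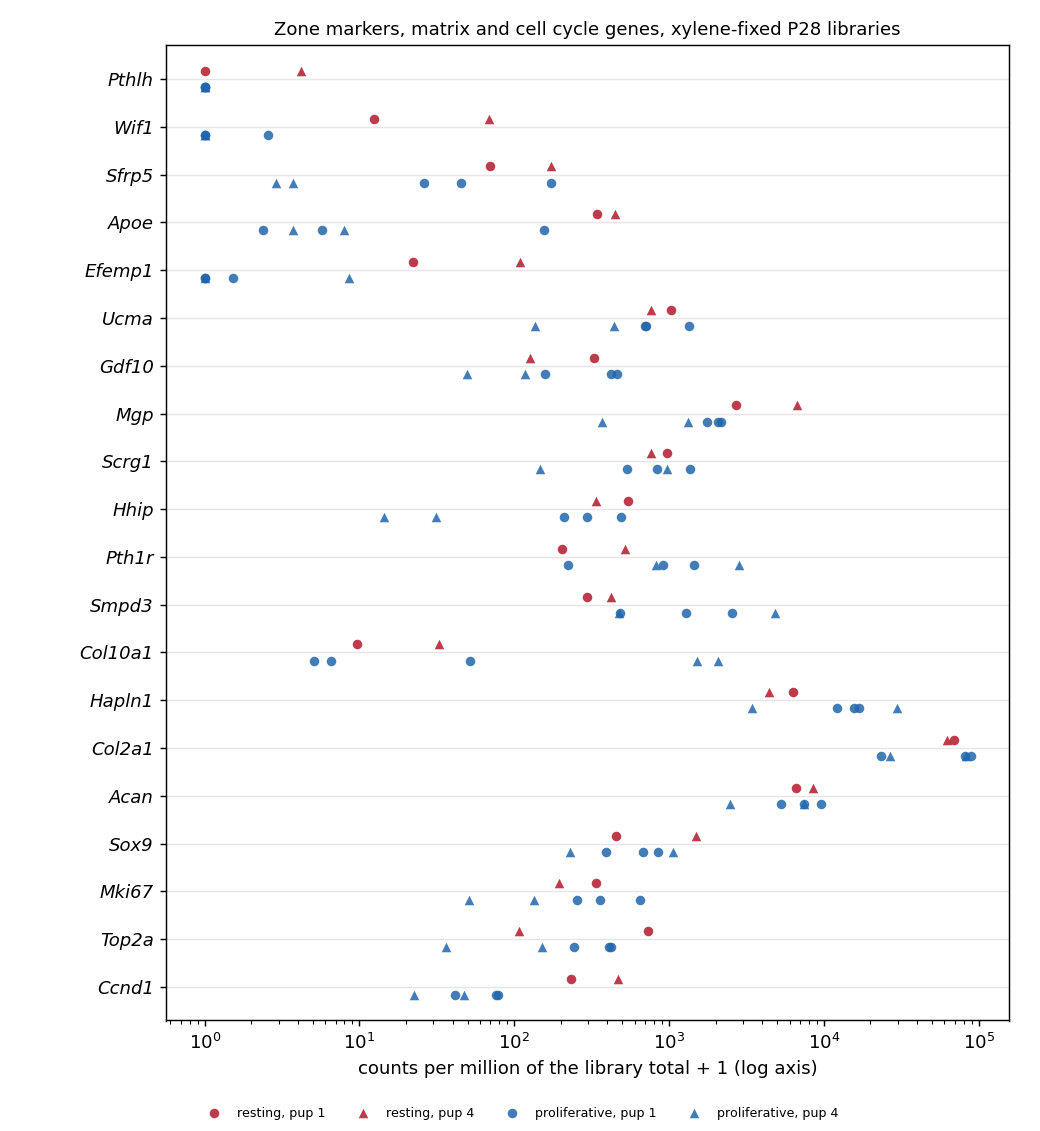
Level of 20 zone marker, matrix and cell cycle genes in the same 7 libraries, in CPM of the library total plus 1 on a log axis, with circles for pup 1, triangles for pup 4, red for resting and blue for proliferative. Apoe, Efemp1, Wif1, Mgp and Ccnd1 are higher in both resting libraries, Col2a1, Acan, Sox9, Ucma and Gdf10 overlap, and 1 blue point for Sfrp5 and Apoe lies apart from the others.

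The plot of marker, matrix and cell cycle genes sets these levels beside the matrix genes. Matn1, a matrilin that links matrix fibrils, was 89.9 and 6.34 CPM in resting libraries and 646.4, 414.4, 702.4, 859.9 and 89.0 CPM in proliferative replicates 1 to 5. By CPM of the total, Rn45s included, replicate 5 lay just under the resting library of pup 1. Within each animal every proliferative library was above the resting one. The difference was -3.95 ± 0.82 (adjusted p = 0.00569, edgeR), 6.43-fold in pup 1 and 113-fold in pup 4. Hapln1, the link protein that ties aggrecan to hyaluronan, was 6334 and 4439 CPM against 3434 to 29680 CPM (-1.97 ± 0.56, adjusted p = 0.199, edgeR), and Col11a1, a minor fibril collagen, differed by -1.75 ± 0.53 (adjusted p = 0.309, edgeR). Col2a1 differed by -0.25 ± 0.43, Acan, the aggrecan core protein, by -0.11 ± 0.56, and Sox9, the chondrocyte master regulator, by -0.06 ± 0.85. Of 21 tested matrix genes, Matn1 was the 1 call. In both animals 12 were lower and 3 higher, beside 27.5% and 22.5% of all genes. Among 10 small leucine-rich proteoglycans, which organise collagen fibrils, 0 passed, and their median of -0.10 turned to 0.16 with RLE size factors, which moved the median of all genes from -0.06 to 0.13.

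Genes of the cell cycle were not called in either direction. Mki67, a marker of dividing cells, was 338.3 and 193.2 CPM in resting libraries and 649.2, 358.9, 252.6, 49.8 and 132.2 CPM in proliferative replicates 1 to 5 (0.74 ± 1.13, adjusted p = 1, edgeR). The resting library of pup 1 lay within the proliferative range of that pup, and that of pup 4 lay above both proliferative libraries of pup 4. Top2a, needed to separate chromosomes, was 726.6 and 106.1 CPM against 35.1 to 421.6 CPM (0.59 ± 1.16). Ccnd1, a cyclin of early cycle entry, was 233.1 and 464 CPM in resting libraries and 21.6 to 77.5 CPM in proliferative ones, without overlap, yet did not pass (2.54 ± 1.46, adjusted p = 1, edgeR). Of 34 tested cell cycle genes, 29 had a positive difference, 19 were higher in resting cartilage in both animals and 2 lower, with a median of 0.98. Over all genes tested, 5160 of 10717 had a positive difference. Of them 22.5% were higher and 27.5% lower in both animals, with a median of -0.06 over all genes. In the ethanol-fixed sections the median of the cell cycle list was -0.94, beside -0.97 over all genes in the same fit.

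Metabolic and secretory lists leaned to the proliferative zone without a call. Over all genes tested, 27.5% were lower and 22.5% higher in both animals, with a median of -0.06. Of 24 tested glycolysis and hypoxia genes, 19 were lower and 1 higher in resting cartilage in both animals, with a median of -1.86. Ldha, which turns pyruvate into lactate, was 189.1 and 213.8 CPM against 700.8, 946.7, 1040, 1621 and 170 CPM in proliferative replicates 1 to 5 (-2.61 ± 0.92, adjusted p = 0.769, edgeR). P4ha1, a collagen prolyl hydroxylase, was 139.9 and 109.3 CPM against 67.5 to 770.5 CPM (-2.31 ± 0.96). In both cases replicate 5, where Rn45s took 78.7% of the counts, was the proliferative library that overlapped the resting ones. CPM are taken over totals that include Rn45s, which lowers the levels of other genes in that library. Of 30 secretory pathway and collagen folding genes, 25 were lower and 2 higher in both animals, with a median of -1.15. Serpinh1, the collagen chaperone, differed by -1.13 ± 0.72, and Hspa5, the main chaperone of the endoplasmic reticulum, by -2.03 ± 0.84. Of 21 cholesterol synthesis genes, 13 were lower and 3 higher in both animals (median -0.85), and of 25 glycosaminoglycan genes 13 were lower and 3 higher (median -0.91).

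Fam162a, a hypoxia-responsive mitochondrial protein, was called by itself, with 39.3 and 4.75 CPM in resting libraries and 719, 320.8, 385.2, 1171 and 13.5 CPM in proliferative replicates 1 to 5 (-5.24 ± 1.28, adjusted p = 0.038, edgeR). By CPM of the total, Rn45s included, proliferative replicate 5 lay between the resting libraries. Anxa8, an annexin that binds membranes, had 3 and 0 resting counts and 19.6, 35.8, 132.6, 205 and 29.7 CPM in the proliferative libraries, with no overlap. Its pooled ratio was 0.0134 (95% counting interval 0.00275 to 0.0392, adjusted p = 0.039, edgeR). Other lists held no call in either direction, namely BMP and TGF-beta (26 tested, 3 higher and 7 lower in both animals), amino acid response (21 tested, 4 and 5), cytosolic ribosomal proteins (54 tested, 9 and 17), matrix proteases (21 tested, 6 and 6) and immediate early genes (16 tested, 0 and 3), where 22.5% of all genes were higher and 27.5% lower in both animals. The ribosomal median was -0.04 and turned to 0.22 with RLE size factors.

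**Figure D3:**
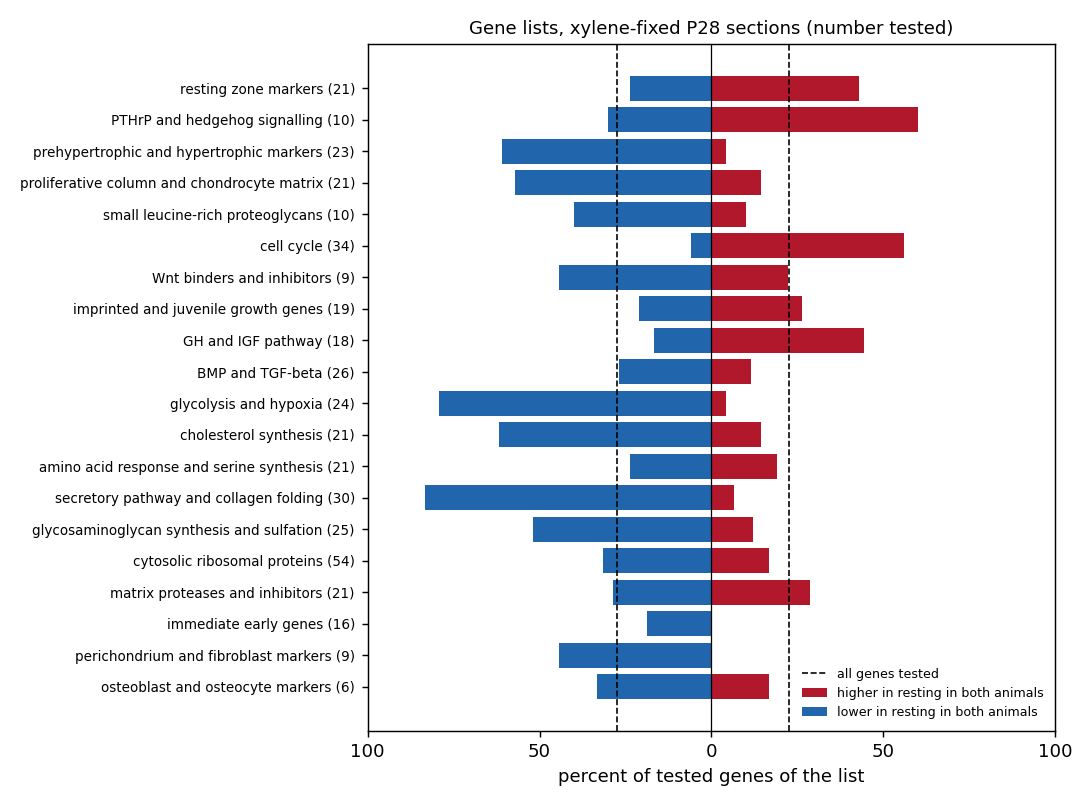
Share of the tested genes of each list that was higher (red, to the right) or lower (blue, to the left) in resting than in proliferative cartilage in both xylene animals, in percent, with the number tested in brackets and lists of at least 6 tested genes shown. Dashed lines give the shares over all genes tested, 22.5% and 27.5%. The blue bars are longest for the secretory and glycolysis lists and the red bars for PTHrP and hedgehog signalling and the cell cycle.

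The plot of gene lists gives shares of genes, which are not replicates, and most of the genes behind its bars did not pass the test one by one.

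Markers of other cell types were few, and some were higher in 1 resting library. The summed level of 9 red cell markers was 18.7 CPM in resting replicate 3 and 734.8 CPM in resting replicate 4, against 5.26 to 76.3 CPM in proliferative libraries, with Hba-a1 and Hba-a2 at 0 in all 7. The 14 white cell and marrow markers summed to 1.33 and 240.7 CPM against 2.70 to 30.9 CPM, with Lyz2 at 0 in all 7. The 9 articular markers summed to 117.2 and 126.7 CPM against 1.40 to 22.1 CPM, with Clu giving 161 of 176 and 50 of 80 counts. The 10 endothelial markers summed to 31.3 and 20.6 CPM against 2.79 to 21.6 CPM, and Pecam1 was at 0 in both resting libraries. The 10 muscle markers summed to 19.3 and 47.5 CPM against 1.40 to 19.1 CPM. Perichondrium and fibroblast markers summed to 851.8 and 1604 CPM within the proliferative range of 369.6 to 2771 CPM. Lum, which is also in the list of small leucine-rich proteoglycans, gave 394.3 and 289.8 CPM of these sums against 164.6 to 2052 CPM. Dcn differed by -0.03 ± 0.96. Col1a1 was 19.3 and 369 CPM in resting replicates 3 and 4 against 6.94 to 121.5 CPM. Col1a2 was 166.5 and 809.3 CPM against 167.3 to 840.3 CPM. Osteoblast markers summed to 107.2 and 438.7 CPM against 71.7 to 335.6 CPM, with Dmp1 and Mepe at 0 in all 7. Bglap was 0 and 41.2 CPM against 0 to 3.79 CPM, and Phex 24.0 and 0 CPM against 0 to 0.63 CPM. Osteoclast markers summed to 14.7 and 23.8 CPM against 0 to 69.8 CPM. Resting replicate 3 had few blood markers, but the highest endothelial sum (31.3 CPM) and the highest Dcn (249.1 CPM) of the 7 libraries. It held Igf1 at 89.9, Igf2 at 14.0, Clu at 107.2 and Meg3 at 741.3 CPM, each above every proliferative library. The part of other cells in the higher Igf1, Igf2, Clu and Meg3 levels of either resting library was not tested.

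The ethanol-fixed P28 sections gave the same contrast in other libraries. In a fit of the ethanol sums alone, 39 of 6958 genes (0.561%) were called by edgeR, 10 higher and 29 lower in resting cartilage. All 39 were tested in the xylene sums, and their fitted xylene differences had the same sign for 10 of 10 and 29 of 29. The median xylene difference was 3.32 for the 10 and -2.70 for the 29, beside -0.06 over all genes in xylene. In ethanol these medians were 5.96 and -3.81, beside -0.81 over all genes in the ethanol fit. In both xylene animals separately, 8 of the 10 were higher and 29 of the 29 lower. Pthlh, with 2 resting counts in pup 4 alone, and Lhfp were the 2 exceptions. Lhfp had 2 resting and 39 proliferative counts in pup 1, and 3 and 0 in pup 4. The fitted signs of these 2 genes thus rest on very few counts. Pup 1 gave libraries of both fixations. In pup 4, which gave no ethanol library, 10 of 10 and 29 of 29 lay in the ethanol direction, where 41.2% of all genes were higher and 49.3% lower. The 10 include Pthlh and Lhfp at the few counts just given. No library was shared between the fixations.

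**Figure D4:**
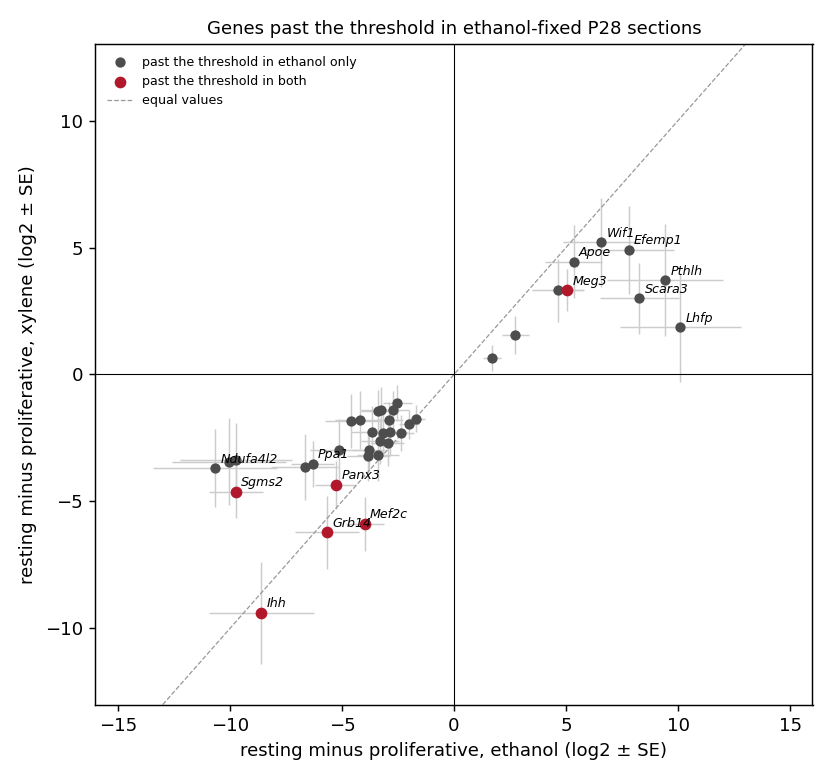
Difference between resting and proliferative cartilage (log2, ± SE) for the 39 genes called in ethanol-fixed P28 sections, with the ethanol value on the horizontal axis and the xylene value on the vertical axis, and genes called in both in red. All 39 points lie at the lower left or the upper right of the 0 lines. Values of genes with 0 counts in a zone, such as Ihh, are fitted and are no measure of size.

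As the plot of ethanol-called genes shows, Sgms2, Meg3, Panx3, Mef2c, Grb14 and Ihh were called in both fixations, 15.4% of the ethanol list and 40% of the xylene list. In the fit over both fixations, where 49 of 10717 genes (0.457%) were called in ethanol, Clu was called there too (adjusted p = 0.0358, edgeR). The remaining ethanol calls include Ppa1, a pyrophosphatase, at -3.51 ± 0.91 in xylene (adjusted p = 0.0729, edgeR), and Fn1, fibronectin, at 1.54 ± 0.75. In the fit of the ethanol sums alone, the median over all genes was -0.81. How many of all genes had the same sign in both fixations was not counted. Of the 15 xylene calls, 11 of them lower in resting cartilage, 14 had the same sign in ethanol. The exception, Frzb, was also the 1 gene of 10717 (0.00933%) whose zone difference was called as different between the fixations, at -10.22 ± 1.74 for xylene minus ethanol (log2 ± SE, adjusted p = 0.000268, edgeR). Frzb in ethanol-fixed resting libraries was 847.1 CPM in animal A, 0 CPM in animal B and 568.8 CPM in animal D, against 38.96 to 87.7 CPM in the proliferative libraries of animals A and B and 3.31 and 1.63 CPM in those of animal D. The ethanol resting libraries thus disagreed among themselves, and pup 1 (animal D) had high resting Frzb after ethanol and 1 resting count after xylene. Without ethanol animal A, the Frzb difference no longer passed, and edgeR made 0 interaction calls (511 genes at unadjusted p under 0.05). It made 0 also without xylene pup 1 (407 genes), without pup 4 (210 genes) and without the animal block (626 genes). Ethanol proliferative replicate 9, labelled animal D, held 267 Xist counts and 0 Y-linked counts. Of the other 4 ethanol libraries of that animal, 3 held Y-linked and 0 Xist counts, and hypertrophic replicate 8 held 2 Xist and 0 Y-linked counts. Without it the xylene comparison made 8 calls in place of 15, and Frzb remained the 1 interaction call.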

How the data were processed

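The authors deposited 1 table of raw read counts, with 23420 gene symbols and 100 columns. The submitters' processing notes list the genome build mm10 and the tools STAR 2.5.2b, cutadapt, Subread and featureCounts 1.5.3. Which annotation and strand setting were used, and how multiply mapped reads were handled, is not given in the sources used here. The 2 columns of a title differed about as much as sampling gives (chi-square per gene 0.805 to 1.09 in xylene libraries) and were summed as 1 library. A minimum of 100000 counts per library was set on all counts, Rn45s included.

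Libraries were summed per animal, fixation and zone. The 27 P2 and P28 sums, 6 of them xylene, entered 1 fit in edgeR 4.0.16 (R 4.3.3) with TMM scaling, the filter of filterByExpr and robust quasi-likelihood F-tests. The block was animal and fixation, with a zone effect within P2 ethanol, P28 ethanol and P28 xylene, which left 10 residual degrees of freedom. Adjustment was Benjamini-Hochberg over 10717 genes. The pairing of zones comes from the animal labels. Deviations from the zone means were checked and correlated by 0.0648 between the zones of a xylene animal, the same in both since there are 2. Standard errors are the log2 difference over the square root of F. Library levels are CPM without TMM. The scripts were tested on simulated data.

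Named were called genes, genes of smallest p up to 10 a direction, called and most abundant members of 26 lists, a panel of zone genes and interaction calls, along with Ppa1, Fn1, Lhfp and the defining markers of other cells, chosen after their values were seen. The members and lists were chosen with earlier results of these data known. Alternatives were RLE size factors, DESeq2 1.42.0, other filters, samples and blocks, thinning to 631447 counts and leaving out animals or libraries.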

Additional observations from a re-analysis of the deposited data

Results flagged for a closer look

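In 12 of 41 groups of 4 to 10 libraries, the highest or lowest library stood far from the others, where chance gives about 1 in 20. Glra2 took 83.11% of the counts in resting replicate 2, a shallow library, and 1% in proliferative replicate 1. Among the 5 proliferative libraries, replicate 4 stood apart as the highest for Mef2c (2044 CPM), Cd200 (201.9 CPM), Frzb (277 CPM), Grb14 (630.9 CPM) and Efemp1 (7.571 CPM). Replicate 2 stood apart for Igf1 (3.468 CPM), Sfrp5 (171.7 CPM) and Apoe (154.3 CPM). Replicate 3 did so for Wif1 (1.578 CPM), and replicate 1 for 2610034B18Rik (57.24 CPM). The values of Igf1, Wif1 and Efemp1 came from 6, 3 and 12 counts. Replicate 2 also had the lowest summed level of prehypertrophic and hypertrophic markers of the 5, at 1980 CPM, near the 1461 and 2122 CPM of the resting libraries, and replicate 4 the highest, at 21000 CPM.

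The zone difference of Frzb was the 1 that differed between the fixations, at -10.22 on the log2 scale for xylene minus ethanol, by the interaction term of the edgeR fit.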

How the results depend on the processing

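The 15 calls between the zones became 9 with RLE size factors (8 of them shared), 46 with DESeq2 (7 shared) and 33 with xylene sums alone (10 shared, 2 residual degrees of freedom). They became 0 without the replicate block, with 406 genes at unadjusted p under 0.05. Leaving out an animal or library gave 0 to 18. No filter gave 12, P28 sums 10, no count minimum 14, leaving out Rn45s, Lars2 and Glra2 14, and thinning 13. The interaction gave 4 calls with RLE, 112 with DESeq2, 0 without the replicate block (626 at unadjusted p under 0.05) and 0 to 3 with an animal or library left out. The 39 ethanol calls that kept their sign in xylene became 18 with RLE, where 18 of 18 ethanol calls kept it. The causes were not tested.

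Of 18 alternatives, Mef2c passed in 16, Matn1 and Ihh in 13, Igf1, Igf2 and Cd200 in 12, Panx3, Frzb and Grb14 in 11, Cdkn1c and Fam162a in 10, Clu in 9, Sgms2 and Anxa8 in 8, and Meg3 in 6. No called gene reversed its direction in any of them. Leaving out xylene hypertrophic replicate 3 or ethanol proliferative replicate 9, alternatives added after seeing the data, gave 12 and 8 calls. With 1 deep resting library per animal, counts near 0 there, as for Pthlh, limit what can be seen.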
